A study of Homo sapiens with 6 samples.

Results

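The nuclear genes of the mitochondrial respiratory chain and of ATP synthase were followed in HSC-3, an established squamous carcinoma line of the human tongue. Members were all genes whose probe sets carried a single symbol beginning with NDUFA, NDUFB, NDUFC, NDUFS or NDUFV, SDHA to SDHD, UQCR, COX4 to COX8, or ATP5, without pseudogenes and non-coding RNA genes. The rule used names only and no measured value. It found 89 genes on 172 probe sets, out of 19775 genes on the array. For each gene the probe set with the highest mean signal over the arrays was read. Of the 89 genes, 76 were counted as subunits: 33 of complex I, 3 of complex II, 6 of complex III, 17 of complex IV and 17 of complex V. The same letters also brought in 12 assembly factors (NDUFAF1 to NDUFAF8 and SDHAF1 to SDHAF4) and the ATP synthase inhibitor ATP5IF1, which are described apart from the subunits. Another 9 probe sets named a gene of the rule outside the ATP5 symbols together with a further gene and were set aside. Any that named an ATP5 gene together with a further gene were set aside too, but were not counted. A gene seen only by such a probe set, such as NDUFS5, NDUFS8 or UQCRH, was not analysed here.

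The study asked how trypsin-2, a secreted digestive-type serine protease, affects gene expression in this line. RNA was measured on 6 oligonucleotide arrays after 48 h of culture: 3 arrays labelled TAT-2 held RNA of HSC-3 cells made to overexpress trypsin-2, and 3 arrays labelled vector held RNA of HSC-3 cells with a control vector. All cells grew in the same medium, which contained serum and hydrocortisone. The labels name no promoter for the transgene and do not say whether a line was 1 clone or a pool, nor whether the replicates came from different cultures, and the p-values therefore cover the variation between these arrays alone, which could be technical. PRSS2, the gene of trypsin-2, went against the labels: its brightest probe set read 20.4, 13.8 and 14.6 on the TAT-2 arrays and 19.6, 80.8 and 83.2 on the vector arrays. Directions below therefore refer to the arrays labelled TAT-2 and labelled vector, and say nothing about the amount of trypsin-2. Array medians lay between 14.8 and 17.6 signal units. The 5 squamous epithelial markers with a probe set were all above the detection filter, with mean signals from 178 to 8427. Of the markers of other cell types, 2 of 6 for fibroblasts, 2 of 4 for leukocytes, 1 of 3 for endothelium and 1 of 4 for muscle reached it, all with mean signals of at most 79.8.

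The respiratory chain sits in the inner mitochondrial membrane. Complex I (NADH dehydrogenase) and complex II (succinate dehydrogenase) pass electrons to coenzyme Q, complex III passes them on to cytochrome c, and complex IV (cytochrome c oxidase) hands them to oxygen. Complexes I, III and IV pump protons as they do so, and complex V, the ATP synthase, uses the returning protons to make ATP. A few catalytic subunits are encoded in mitochondrial DNA, and all others, including every member here, in the nucleus, where many of the promoters carry sites for NRF1, for ETS factors such as GABP, and for YY1. Carcinoma lines are often highly glycolytic, but most keep a working chain.

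The promoters are shown first because the called members (named below) share membership of these complexes but not the same promoter letters. The window of 250 bases before to 50 bases after the start of transcription (RefSeq, GRCh38.p14) was held for 77 of the 89 members and searched on both strands. The letters GCGCNNGCG, an NRF1-type motif, were found in 31 of the 77 (40.3%), against 17.0% of all 27305 promoters and 23.2% of the 15842 promoters of coding genes. The letters CCGGAAG, an ETS-type motif, were in 21 (27.3%), against 10.7% of all and 14.2% of coding promoters. The letters AAGATGGCG, a YY1-type motif, were in 7 (9.09%), against 1.85% and 2.74%. At least 1 of the motifs was in 47 member promoters (61.0%), 25.7% of all promoters and 34.6% of coding promoters. Matches of different motifs could overlap. Among the 7 members that passed the test with the replicate number as a block, 5 held a motif: 3 the NRF1-type and 2 the ETS-type. A match is a match of letters only, and its absence says only that these letters are not in the window.

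The 200 bases upstream of the start are printed for those 5 members, which include the highest and the lowest group difference of all members, with matched letters in capitals. NDUFA3 shows the NRF1-type motif at separate positions, each read on both strands in overlapping letters, and ATP5F1E shows it once. COX6B1 and ATP5MK show the ETS-type motif, which in ATP5MK also reads on both strands. The NRF1-type matches of UQCR10 lie in its window but outside the printed bases.
NDUFA3, chr19:54102655-54102854, plus strand: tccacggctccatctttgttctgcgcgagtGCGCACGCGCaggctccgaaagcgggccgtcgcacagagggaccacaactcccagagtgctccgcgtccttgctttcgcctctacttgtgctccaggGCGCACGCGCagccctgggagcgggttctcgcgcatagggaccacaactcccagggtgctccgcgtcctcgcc
COX6B1, chr19:35648123-35648322, plus strand: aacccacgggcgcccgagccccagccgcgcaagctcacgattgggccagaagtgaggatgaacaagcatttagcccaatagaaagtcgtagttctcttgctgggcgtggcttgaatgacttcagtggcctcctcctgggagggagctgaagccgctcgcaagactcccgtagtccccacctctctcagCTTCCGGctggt
ATP5MK, chr10:103396476-103396675, minus strand: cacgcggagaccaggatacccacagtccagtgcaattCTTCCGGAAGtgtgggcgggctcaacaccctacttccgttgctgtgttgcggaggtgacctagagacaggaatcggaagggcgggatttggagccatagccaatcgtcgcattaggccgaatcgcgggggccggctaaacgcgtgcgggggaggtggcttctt
UQCR10, chr22:29767169-29767368, plus strand: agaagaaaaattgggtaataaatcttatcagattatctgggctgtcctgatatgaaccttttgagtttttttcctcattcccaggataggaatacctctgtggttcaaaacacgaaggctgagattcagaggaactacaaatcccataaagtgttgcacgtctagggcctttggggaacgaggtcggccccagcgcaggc
ATP5F1E, chr20:59032336-59032535, minus strand: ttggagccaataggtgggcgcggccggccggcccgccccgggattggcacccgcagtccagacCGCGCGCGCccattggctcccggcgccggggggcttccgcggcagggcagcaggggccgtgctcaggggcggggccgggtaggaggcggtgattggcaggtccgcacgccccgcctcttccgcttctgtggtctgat

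Of the 89 members, 83 reached the filter (a mean signal of 15.2, the median of all probe sets) and were tested. The main test compared the groups with limma on log2(signal + 16) and adjusted p-values over all probe sets tested, so every difference below is on that scale and was called at an adjusted p under 0.05. In that fit 0 members were called, and the smallest adjusted p of a member was 0.104. Over all 12151 genes the same rule called 7 (0.0576%), 2 higher (0.0165%) and 5 lower (0.0411%). At an unadjusted p under 0.05 there were 9 members, beside 9.4% of all genes. Array pairs with the same replicate number deviated together, so the fit was also made with the replicate number as a block. With the block 7 members were called, 5 higher and 2 lower on the TAT-2 arrays. That is 8.43% of the members tested, beside 6.97% of all genes tested, so the members' share was near the background. At an unadjusted p under 0.05 there were 23 with the block (27.7%), beside 22.3% of all genes. The higher ones were 6.02% of members beside 3.5% of all genes, and the lower ones 2.41% beside 3.47%. Among brighter probe sets only, with the filter at percentile 70, 9 members were called with the block, 11.1% beside 11.7% of all genes.

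The 7 called members came from complexes I, III, IV and V and the inhibitor of complex V, with changes of 1.22-fold to 1.35-fold. UQCR10, NDUFA3, NDUFB8, COX6B1 and ATP5MK were higher on the TAT-2 arrays by 0.29 to 0.43, and ATP5F1E and ATP5IF1 lower by 0.37 and 0.34. These calls rest on the blocked fit and on its intensity trend: with no trend, or with array medians centred, 0 of the members were called. They also rest on the replicate 2 arrays, since only NDUFA3 was called without either of them. Others rest on the replicate 1 arrays: NDUFA3 and NDUFB8 were not called without either of these, nor ATP5IF1 without vector replicate 1. With the block, leaving out 1 array also removes its same-numbered partner from the group difference, so these checks act on pairs of arrays.

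**Figure D1:**
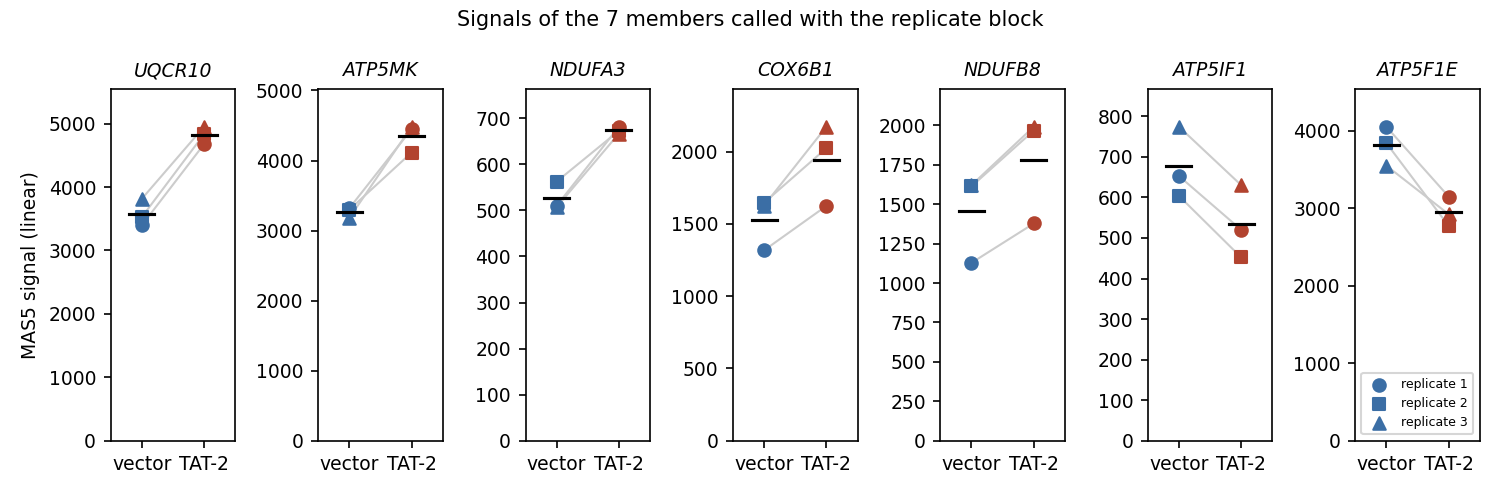
Signal on each of the 6 arrays (linear axes from 0, 1 panel per gene) for the 7 members called with the replicate number as a block; marker shapes give the replicate number, grey lines join arrays of the same number and black bars are group means. UQCR10, ATP5MK, NDUFA3 and ATP5F1E separate the groups, whereas COX6B1, NDUFB8 and ATP5IF1 overlap and differ the same way within every replicate number.

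In complex III, UQCR10, a small accessory subunit of the cytochrome bc1 complex, had signals of 4678, 4835 and 4952 on the TAT-2 arrays and 3397, 3526 and 3814 on the vector arrays. Every TAT-2 array was above every vector array. The means were 4822 ± 138 and 3579 ± 213 (SD, n = 3), a difference of 0.43 ± 0.07 (SE; adjusted p = 0.104) that was called with the block (SE 0.06, adjusted p = 0.00366). A second, much dimmer probe set of UQCR10 gave 0.45 and was called with the block too (adjusted p = 0.021). UQCRQ, another small subunit of the complex, read 2624, 2714 and 2864 against 2382, 2484 and 2298. Its groups did not overlap, but the difference of 0.19 was not called with the block (adjusted p = 0.134). UQCRB, the subunit near the coenzyme Q site, read 3011, 3544 and 3943 against 2715, 3099 and 3327, a difference of 0.19 that was not called (adjusted p = 0.113 with the block). The large core proteins UQCRC1 and UQCRC2 differed by -0.01 and 0.05 and UQCR11 by -0.09, none of them called. A second probe set of UQCRC2 gave 0.23, not called either (adjusted p = 0.121 with the block).

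In complex V, ATP5MK, a small membrane subunit also known as DAPIT, had signals of 4446, 4113 and 4483 on the TAT-2 arrays and 3317, 3295 and 3176 on the vector arrays. The groups were apart on every array, with means of 4347 ± 204 and 3263 ± 75.6 (SD, n = 3). The difference was 0.41 ± 0.07 (SE; adjusted p = 0.104), called with the block at an adjusted p of 0.00532. ATP5F1E, the epsilon subunit in the central stalk of the F1 part, went the other way: 3150, 2772 and 2923 on the TAT-2 arrays against 4052, 3841 and 3549 on the vector arrays. All 3 vector arrays were above all TAT-2 arrays, and the difference was -0.37 ± 0.08 (SE; adjusted p = 0.206), called with the block at 0.00927. ATP5IF1, the peptide that blocks ATP hydrolysis by complex V when the membrane potential falls, read 520, 452 and 630 against 653, 604 and 775. Its groups overlapped, but the TAT-2 array was lower within each replicate number, by 0.32, 0.41 and 0.29 on the log2 scale.

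The fitted difference of ATP5IF1 was -0.34 ± 0.15 (SE; adjusted p = 0.627) and was called with the block (adjusted p = 0.0145). Its probe sets disagreed: a second one gave -0.33 and was not called (adjusted p = 0.056 with the block), and another gave 0.08 (adjusted p = 0.771). With a term for replicate 1 in place of the block, ATP5IF1 was not called (adjusted p = 0.153). The other complex V subunits stayed uncalled. The catalytic alpha and beta subunits ATP5F1A and ATP5F1B differed by -0.01 and 0.02, with 95% intervals with the block of -0.17 to 0.14 and -0.12 to 0.16. Of the genes for the proton-carrying c ring, which encode the same mature protein, ATP5MC1 differed by -0.02, ATP5MC2 by -0.15 and ATP5MC3 by 0.11. ATP5MJ, a small membrane subunit, had non-overlapping groups (2758, 2774 and 3083 against 2550, 2529 and 2618) with a difference of 0.16 (adjusted p = 0.201 with the block), and a second probe set of -0.07. The peripheral stalk subunit ATP5PB read 4653, 4893 and 5586 against 4765, 4716 and 4792, a difference of 0.08, and its other, dim probe set gave -0.19. ATP5MG, a membrane subunit, differed by 0.09, and its other probe sets gave 0.03 to 0.27, none called.

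In complex I, NDUFA3, an accessory subunit of the membrane arm, read 682, 673 and 667 on the TAT-2 arrays and 510, 563 and 507 on the vector arrays. The groups did not overlap, and the TAT-2 arrays were nearly equal among themselves, with means of 674 ± 7.46 and 527 ± 31.2 (SD, n = 3). The difference was 0.35 ± 0.09 (SE; adjusted p = 0.326), called with the block at 0.0143. NDUFB8, a membrane-arm subunit often used as a marker of assembled complex I, read 1378, 1968 and 1992 against 1128, 1613 and 1621. Here both replicate 1 arrays were low and the groups overlapped, while the differences within replicate numbers were 0.28, 0.28 and 0.29. Its difference of 0.29 had an SE of 0.18 without the block (adjusted p = 0.817) and of 0.06 with it (adjusted p = 0.0206). A second NDUFB8 probe set gave 0.36, called with the block (adjusted p = 0.013), and a dim one 0.42, not called (adjusted p = 0.241).

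A further 3 complex I subunits had non-overlapping groups without being called: NDUFB1, NDUFB6 and NDUFA2. NDUFB1 read 2657, 2649 and 2652 against 2182, 2460 and 2056, a difference of 0.25 (adjusted p = 0.0644 with the block). NDUFB6 read 1582, 1735 and 1849 against 1385, 1523 and 1446, a difference of 0.24 (adjusted p = 0.0586 with the block, 0.0489 with a term for replicate 1 in its place). NDUFA2, in the peripheral arm, differed by 0.17. The core subunits, which hold the flavin and most iron-sulfur clusters, lay close to no difference. NDUFV1, which binds NADH, read 1207, 1012 and 993 against 1203, 1090 and 929 (difference -0.00, 95% interval with the block -0.15 to 0.14). NDUFS1, the large iron-sulfur subunit, differed by 0.01, NDUFV2 by 0.07, NDUFS7 by 0.07 and NDUFS3 by 0.12. Among the 5 core, 10 peripheral accessory and 18 membrane-arm accessory subunits tested, the medians were 0.07, 0.01 and 0.09. The brightest complex I signals on these arrays, NDUFB4 and NDUFB9 of the membrane arm, differed by 0.01 and -0.08 (95% intervals with the block -0.12 to 0.15 and -0.25 to 0.09). The largest lower value of complex I was that of NDUFA7, a peripheral-arm subunit, at -0.18 (adjusted p = 0.309 with the block).

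In complex IV, COX6B1, which faces the intermembrane space and joins the monomers of the dimer, read 1625, 2025 and 2174 on the TAT-2 arrays and 1317, 1647 and 1627 on the vector arrays. Both replicate 1 arrays were the low ones of their group, so that TAT-2 replicate 1 fell below vector replicates 2 and 3. Within replicate numbers the TAT-2 array was higher by 0.30, 0.30 and 0.41. The difference was 0.34 ± 0.13 (SE; adjusted p = 0.584), called with the block at 0.0116. COX8A, a small membrane subunit, had non-overlapping groups (3735, 3633 and 3664 against 3350, 3438 and 3035) and a difference of 0.17 that was not called (adjusted p = 0.198 with the block). COX7C also did not overlap, with a difference of 0.09, and its other probe sets gave 0.12 and 0.31, not called (adjusted p = 0.47 and 0.055 with the block). COX7A2L, a factor for supercomplexes of complexes III and IV that carries a subunit's name, differed by 0.17 (adjusted p = 0.167 with the block). By that name it was kept among the complex IV subunits in the counts and medians.

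Several complex IV subunits exist as a widely used form and a form of heart and muscle, testis or lung. The widely used forms COX4I1, COX6A1, COX7A2 and COX7B were well above the filter and differed by -0.07, -0.07, 0.15 and 0.10, none called. Of the tissue forms, COX6A2, COX7A1 (muscle), COX6B2, COX7B2 and COX8C (testis) were below the filter on the mean of the arrays and were not tested. COX6A2 read 21.5, 7.4 and 14.7 against 11.9, 12 and 21.1. COX7A1 read 2.51, 6.23 and 2.54 against 3.25, 0.853 and 2.31, at the bottom of the scale on every array. COX4I2, the lung form that is induced by low oxygen, was above the filter at a low mean signal of 33.6. It read 30, 36.3 and 36.1 against 42.7, 23.3 and 33.1, and its difference of 0.05 had a 95% interval with the block of -0.35 to 0.45. The only other member below the filter was the complex V subunit ATP5MF, whose single-symbol probe set read from 0.982 to 11.2. Any probe set that names ATP5MF together with a further gene was not read, so this low signal may not stand for the gene.

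The gene once named NDUFA4, now COXFA4 and counted with complex IV, carries a symbol outside the rule and is given beside it. COXFA4 read 2077, 2139 and 2267 against 1876, 1825 and 1847, with groups that did not overlap. Its difference of 0.22 was not called (adjusted p = 0.0742 with the block). Its relative COXFA4L2, known as a target of the hypoxia response, was below the filter at 1.71, 7.54 and 2.77 against 11.4, 0.697 and 1.77.

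Complex II, the only complex that also belongs to the citric acid cycle, had the smallest differences. SDHA, the flavoprotein, read 589, 653 and 615 against 579, 662 and 605, a difference of 0.01 (95% interval with the block -0.13 to 0.15). SDHC and SDHD, the membrane anchors, differed by -0.06 and 0.07, with intervals of -0.22 to 0.10 and -0.07 to 0.22. For SDHC the sign depended on the probe set, since its other probe sets above the filter gave 0.055 to 0.20.

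Across all members tested, 13 had groups that did not overlap, 11 with TAT-2 above and 2 with vector above. All genes tested gave 15.7% without overlap, 7.86% with TAT-2 above and 7.82% with vector above, and the members 15.7%, 13.3% and 2.41%. The TAT-2 array was the higher one in all 3 replicate numbers for 29 members and the lower one for 7, that is 34.9% and 8.43% of members beside 21.4% and 21.1% of all genes. The group difference was above 0 for 59 of the 83, or 71.1%, beside 49.6% of all genes. By complex, 26 of 33, 2 of 3, 4 of 6, 9 of 12 and 10 of 16 tested subunits of complexes I, II, III, IV and V lay above 0.

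**Figure D2:**
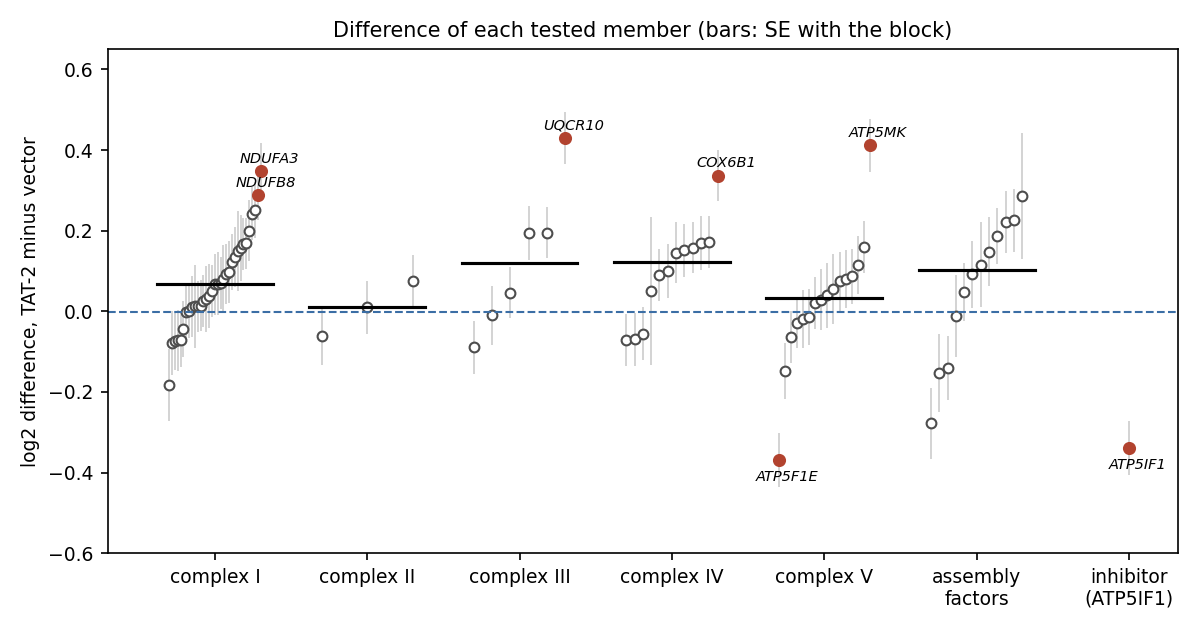
Difference of each tested member (log2 scale, TAT-2 minus vector, 1 point per gene, grey bars the SE with the block), grouped by complex; black bars are group medians, the dashed line is the median of all genes tested and filled points are the members called with the block. Most members of complexes I and IV lie slightly above 0, and the called members stand at the edges, from -0.37 for ATP5F1E to 0.43 for UQCR10.

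These small differences were uneven over the replicate numbers. The median over the 70 subunits tested was 0.06, beside -0.00 for all genes. Within replicate number 1 it was -0.01, within 2 it was 0.03 and within 3 it was 0.16. Complexes I, III, IV and V all had their highest median within replicate number 3: 0.16, 0.20, 0.20 and 0.17. Within replicate number 1 the same complexes were at 0.01, 0.06, 0.06 and -0.06. Without TAT-2 replicate 3 the subunit median was 0.03, and without vector replicate 3 it was 0.03 as well, about as small as within replicate number 2. The median of all genes stayed within 0.01 of 0 in each replicate number.

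**Figure D3:**
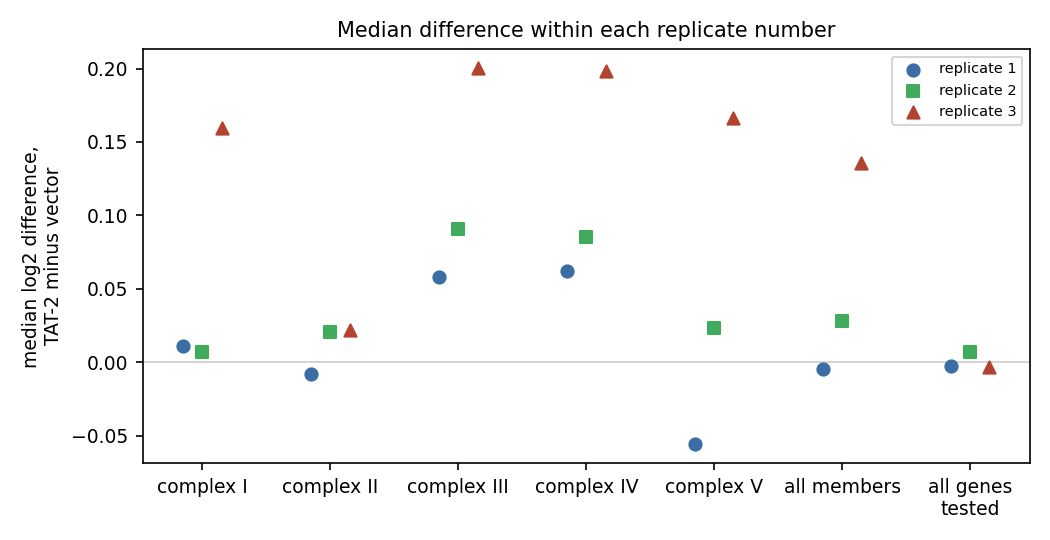
Median difference (log2 scale, TAT-2 minus vector) over the tested members of each complex, over all members and over all genes, within each of the 3 replicate numbers. Replicate number 3 gives the highest median for each complex, for instance 0.20 in complex IV, while all genes stay near 0.

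Values differed within a complex: in complex V, ATP5MK at 0.41 and ATP5F1E at -0.37 were the highest and the lowest of 16 tested subunits. In complex I the subunits ran from -0.18 to 0.35, in complex III from -0.09 to 0.43, in complex IV from -0.07 to 0.34 and in complex II from -0.06 to 0.07. The error limits what could be seen. The median SE of a tested member was 0.11 without and 0.07 with the block, beside 0.16 and 0.11 over all genes, and the bound of a 95% interval with the block that lay farthest from 0 was 0.63, a 1.55-fold change, for SDHAF4. The widest such interval was that of COX4I2. Of 57 other tested probe sets of 38 members, 35 had the sign of the gene's brightest one and 2 were called with the block, those of UQCR10 and NDUFB8 given above.

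Both replicate 1 arrays stood apart from replicates 2 and 3 in many members. With a term for replicate 1 beside the group, 24 of the 83 members were called, 8 higher and 16 lower on the replicate 1 arrays. Over all genes the same term called 25.1%, with 13.2% higher and 11.9% lower, and over the members 28.9%, with 9.64% higher and 19.3% lower. The replicate 1 shift was larger in size than the group difference for 60 members (72.3%), beside 64.1% of all genes. It had the same sign in the TAT-2 and in the vector array for 68 of the 83. The share over all genes was not counted. Over all tested probe sets the replicate 1 arrays deviated together (r = 0.64), so the count is not read as a trait of the members. What differs about replicate 1 is not given in the labels, so the shift is described by that number alone.

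ATP5F1D, the delta subunit of the F1 central stalk, showed the widest shift. It read 519, 313 and 253 on the TAT-2 arrays and 510, 288 and 263 on the vector arrays, so that the replicate 1 arrays were the highest of both groups. The shift was 0.85 ± 0.10 (SE; adjusted p = 0.000204), whereas the groups differed by 0.03. UQCRC1, a core protein of complex III, read 1287, 812 and 949 against 1314, 907 and 850, a shift of 0.56. ATP5F1B, the catalytic beta subunit, was also higher on replicate 1, by 0.33 (4018, 3254 and 3322 against 4131, 3220 and 3133). The same held for the complex I core subunits NDUFV1 and NDUFV2, by 0.26 and 0.27, for NDUFB10 and NDUFB11 of the membrane arm, by 0.36 and 0.29, and for COX5B by 0.23.

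The 16 members lower on replicate 1 were led by NDUFB3, NDUFB8, NDUFA7 and NDUFB5 of complex I. NDUFB3, a small membrane-arm subunit, read 634, 990 and 901 on the TAT-2 arrays and 629, 984 and 890 on the vector arrays. The groups were alike within each replicate number and replicate 1 was lower by 0.56 (SE 0.07, adjusted p = 0.000457). NDUFB8, NDUFA7 and NDUFB5 were lower by 0.52, 0.48 and 0.43, COX6B1 by 0.34, COX7A2 by 0.32, SDHD by 0.31, and SDHC and UQCRC2 by 0.30 each. NDUFB8 and COX6B1 are the 2 members called both for this shift and for the group difference with the block. The shift divided complexes: in complex III UQCRC1 was higher and UQCRC2 and UQCRB lower on replicate 1, while in complex V the 2 called subunits were both higher and in complex II the 2 called subunits both lower.

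**Figure D4:**
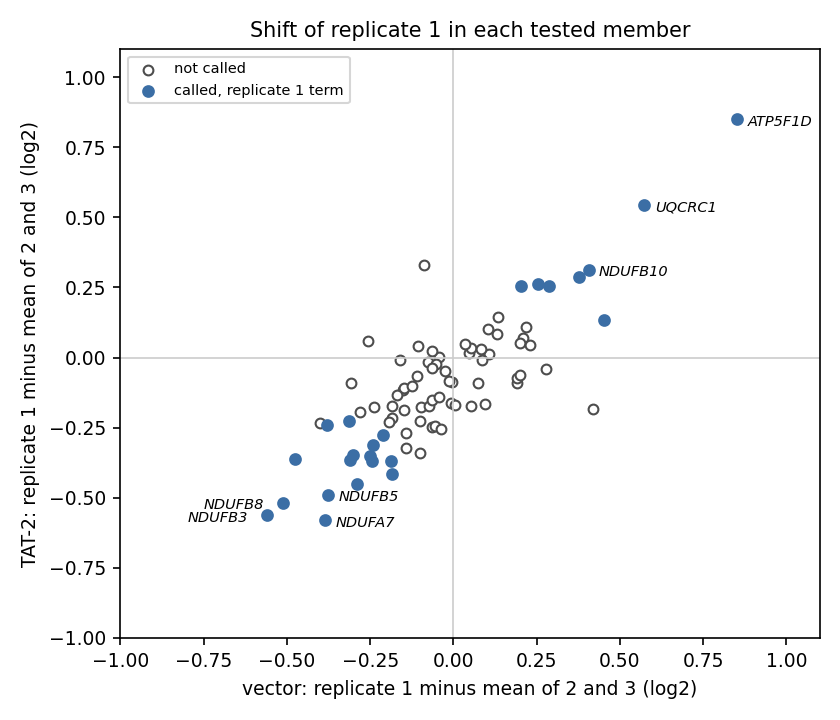
Replicate 1 minus the mean of replicates 2 and 3 (log2 scale) in each tested member, on the vector arrays (horizontal axis) and on the TAT-2 arrays (vertical axis); filled points are the 24 members called for the replicate 1 term. For 68 of the 83 members both shifts have the same sign, with ATP5F1D at the upper right and NDUFB3 at the lower left. The share over all genes was not counted.

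The 12 assembly factors that the letters of the rule brought in were all tested and none was called for the group difference, with or without the block. Their median was 0.10, and 8 lay above 0. NDUFAF5, which modifies a core subunit during complex I assembly, read 145, 161 and 182 against 182, 193 and 227, a difference of -0.28 (adjusted p = 0.0999 with the block). The groups did not overlap, but the highest TAT-2 and the lowest vector array differed by less than 1 signal unit. SDHAF4, an assembly factor of complex II, had non-overlapping groups at low signal, 62, 48.4 and 43.7 against 36.7, 40.4 and 39.7, and its difference of 0.29 was not called (adjusted p = 0.377 with the block).

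Genes that serve the chain under other symbols are given here by pathway. Of 38 further assembly factors tested, 5 were called with the block (13.2%, beside 6.97% of all genes), 3 higher (7.89%, beside 3.5%) and 2 lower (5.26%, beside 3.47%), and their median was 0.08. PET117, an assembly factor of complex IV that acts in heme a synthesis, had the largest difference. It read 256, 237 and 286 on the TAT-2 arrays and 437, 472 and 437 on the vector arrays. Every vector array was above every TAT-2 array, and the difference was -0.76 ± 0.11 (SE; adjusted p = 0.0699), called with the block at 0.000685. SCO1, a copper chaperone of complex IV, was lower by 0.38 and called with the block (429, 328 and 359 against 592, 455 and 425, adjusted p = 0.0151). COA5, needed for complex IV assembly, was higher by 0.52 and called with the block (272, 405 and 441 against 196, 302 and 265, adjusted p = 0.00551). LYRM7, which guards the iron-sulfur protein of complex III before its insertion, and COX18, a membrane insertase for complex IV, were both higher by 0.32 (adjusted p = 0.0311 and 0.0394 with the block). Arrays were also left out singly, which with the block removes the same-numbered partner from the group difference as well. With any single array left out neither LYRM7 nor COX18 was called. SCO1 was not called without any one of the replicate 1 or 2 arrays, whereas PET117 and COA5 were called each time. Their size depended on the probe sets: with a gene's probe sets averaged, PET117 came to -0.43 and was still called with the block, while COA5 came to 0.26 and was not.

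Of 11 citric acid cycle genes tested, 1 was called with the block (9.09%, beside 6.97% of all genes): IDH3B, a subunit of the NAD-dependent isocitrate dehydrogenase, at -0.32 (676, 601 and 564 against 855, 743 and 705, adjusted p = 0.017). It was not called without any one of the replicate 1 or 2 arrays. The median of the list was -0.02. Of 11 genes of coenzyme Q synthesis 0 were called in either fit; 9 lay below 0 and the median was -0.14. Counts at an unadjusted p under 0.05 were 1 without the block (9.09%, beside 9.4% of all genes) and 3 with it (27.3%, beside 22.3%). The smallest p was that of COQ4, which read 258, 226 and 275 against 310, 302 and 317 (difference -0.28, adjusted p = 0.0736 with the block). COQ3, a methyltransferase of the same pathway, differed by -0.17 (adjusted p = 0.244 with the block). Of 14 regulators of mitochondrial biogenesis tested 0 were called, and their median was -0.01. Their counts at an unadjusted p under 0.05 were 0 without the block (beside 9.4% of all genes) and 2 with it (14.3%, beside 22.3%). The 2 were PPRC1, a coactivator of the PGC family, at 0.29 (adjusted p = 0.0778 with the block), and TFAM, the packaging and transcription factor of mitochondrial DNA, at 0.21 (adjusted p = 0.104 with the block). GABPB1, a subunit of the ETS-type factor GABP, had the smallest p without the block and differed by -0.20 (166, 170 and 165 against 212, 178 and 193, adjusted p = 0.283 with the block). PPARGC1A, the best known coactivator of the family, was below the filter (1.4, 7.58 and 8.67 against 7.9, 5.52 and 6.81).

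The subunits outside the rule included 7 encoded in mitochondrial DNA. COX1, the catalytic subunit of complex IV, read 10827, 10209 and 10775 against 12091, 10606 and 10344, a difference of -0.05. These were the highest signals of each array, and whether signals this bright were limited by the scale was not tested. COX2, ND2, ND4 and ATP6 differed by -0.04, -0.04, -0.02 and -0.08, and COX3 by -0.09. ND6 went the other way, at 425, 368 and 354 against 270, 325 and 397, a difference of 0.21 that was 0.63, 0.17 and -0.16 within replicate numbers 1, 2 and 3 and was not called. Cytochrome c itself, CYCS, differed by 0.13 and its partner in complex III, CYC1, by -0.18. None of the 9 such genes tested was called for the group difference in either fit, and 2 lay above 0. Their counts at an unadjusted p under 0.05 were 0 without the block (beside 9.4% of all genes) and 1 with it (11.1%, beside 22.3%).

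Several of the called genes lay among chromosomal neighbours with values of the same sign. Gene order was taken from RefSeq (GRCh38.p14), and the 10 tested genes on either side were read for each. ATP5F1E lies on chromosome 20, where its 20 neighbours had a median of -0.35, close to its own -0.37. Only 1 of them was above 0, and 8 were called lower with the block. All 351 tested genes of chromosome 20 had a median of -0.21. PET117 and IDH3B are on the same chromosome, with neighbour medians of -0.27 and -0.26 and with 9 and 7 neighbours called lower. NDUFB8 and ATP5MK are on chromosome 10, whose 488 tested genes had a median of 0.14. The neighbours of NDUFB8 had a median of 0.25 with 20 of 20 above 0 and 5 called higher, and those of ATP5MK a median of 0.20 with 15 above 0 and 6 called higher. UQCR10 on chromosome 22 (chromosome median 0.06) had a neighbour median of 0.16 with 12 of 20 above 0 and 6 called higher. COX18 on chromosome 4 (chromosome median -0.01) had a neighbour median of 0.43 with 19 above 0 and 12 called higher. ATP5IF1 on chromosome 1 (chromosome median -0.02) had a neighbour median of -0.18, with 5 of 20 above 0 and 3 called lower. For SCO1 on chromosome 17 (chromosome median -0.01) the neighbour median was -0.21, with 6 of 20 above 0 and 3 called lower. Over all genes tested 49.6% lay above 0, and with the block 3.5% were called higher and 3.47% lower.

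The remaining called genes had neighbour medians near 0 or of the opposite sign. NDUFA3 on chromosome 19 stood at 0.35 while its neighbours had a median of -0.15 and only 5 of 20 lay above 0. COX6B1, also on chromosome 19 (chromosome median 0.04), stood at 0.34 beside a neighbour median of 0.06, with 13 of 20 above 0 and 1 called higher. COA5 on chromosome 2 stood at 0.52 beside 0.01, with 11 above 0 and 0 called. LYRM7 on chromosome 5 (chromosome median 0.08) stood at 0.32 beside 0.06, with 15 above 0 and 2 called higher. The part of neighbouring genes or of DNA copy number in these differences was not tested.

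**Figure D5:**
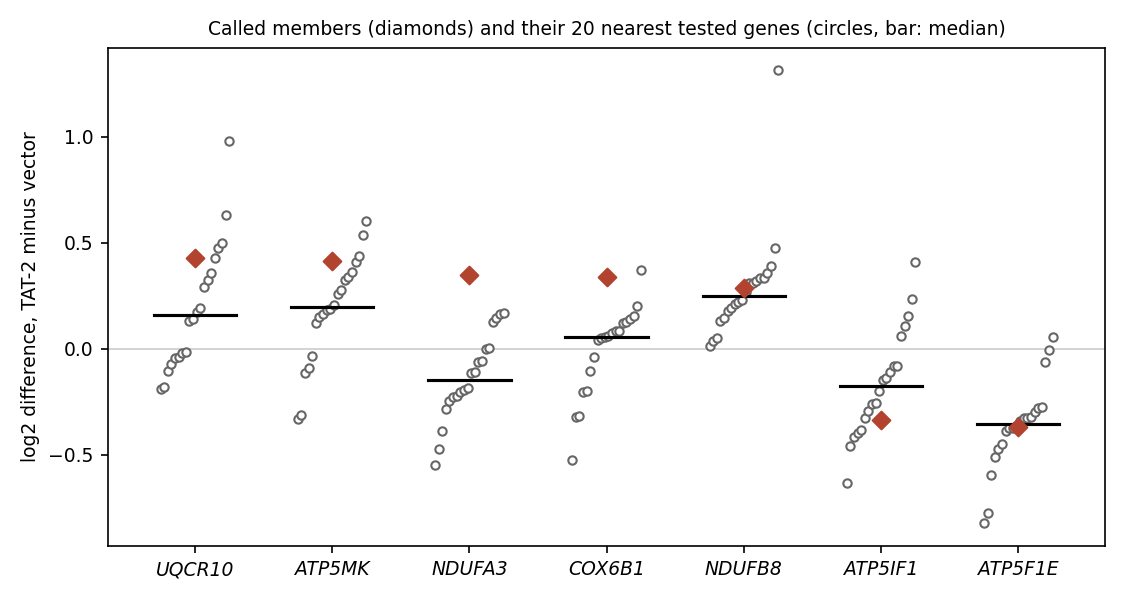
Difference (log2 scale, TAT-2 minus vector) of each of the 7 called members (diamonds) beside those of its 20 tested neighbours on the chromosome, 10 on either side (circles, with a bar at their median). The neighbours of ATP5F1E centre on -0.35 and those of NDUFB8 on 0.25, whereas those of NDUFA3 centre on -0.15, opposite in sign to the gene.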

How the data were processed

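Total RNA of HSC-3 cells was labelled and hybridised to Affymetrix arrays, 3 per group. The deposited values are linear signal intensities, 1 per probe set and array, made by the authors with MAS5, as the submitters' processing notes state; its version is not given in the sources. The mean between percentiles 2 and 98 was 99.98 on every array, and this scaling by the authors was left as it was. Of 54675 probe sets, 62 were controls, 41097 had 1 gene symbol in the platform annotation, 1801 several and 11777 none. By gene identifier 41043 were matched to RefSeq (GRCh38.p14) and 54 kept the name given.

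Signals were taken as log2(signal + 16), which understates changes of dim probe sets. The filter, a mean log2 value of at least 4.96, left 27307 probe sets. Fits used limma 3.58.1 in R 4.3.3 (lmFit, eBayes with an intensity trend), with group alone as the main model and the replicate number as a block, or replicate 1 against 2 and 3, as alternatives. p-values were adjusted by Benjamini-Hochberg over all probe sets tested, at a threshold of 0.05. Deviations from the group means were correlated between same-numbered arrays over probe sets: r was 0.64, 0.39 and 0.25 for numbers 1, 2 and 3, all above 0.1, so the titles' numbers were taken to pair the arrays. Differently numbered arrays also correlated in part: TAT-2 replicate 2 with vector replicate 3 at 0.32, and TAT-2 replicate 3 with vector replicate 2 at 0.20. These values therefore do not settle how the arrays numbered 2 and 3 pair. The fitting was tested on simulated data.

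The members and gene lists were chosen with earlier results of these data known. Named in full are members called in either fit, the 2 subunits per complex with the largest difference and the 2 brightest, isoform pairs, and up to 4 called genes of each other list, or the 2 of smallest p where none was called. COX18, PPRC1, the members named for groups that did not overlap or for the replicate 1 shift, and the neighbouring genes, were added after their values were seen. Other pseudocounts, filters, normalizations, probe set choices and left-out arrays were tried. The number of arrays limits the precision.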

Additional observations from a re-analysis of the deposited data

How the results depend on the processing

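With 3 arrays per group, the limits are the spread between arrays and, for dim genes, signal near background. Without the block 0 members were called under all pseudocounts, filters, normalizations, probe set choices and left-out single arrays tried. With the replicate block 7 were called, with a term for replicate 1 (the batch factor) also 7, of which 6 higher and 1 lower (NDUFB6 called and ATP5IF1 not), and without both replicate 1 arrays, chosen after seeing the data, 2. The blocked count of 7 became 1 with no filter (UQCR10 alone), 13 with quantile normalization (11 higher), 0 with array medians centred, 0 with no intensity trend, 0 with no replicate block and 4 without both replicate 1 arrays. Leaving out single arrays gave 1 to 7, with 1 without either replicate 2 array, 4 without vector replicate 1 and 5 without TAT-2 replicate 1. In these blocked fits the same-numbered partner of the left-out array no longer enters the group difference, so they are not separate checks of each array. With no intensity trend 0 of all genes were called with the block either. The count for the replicate 1 shift, 24, was 14 with no filter, 15 with medians centred and 6 with no trend, and 6 to 25 with single arrays left out. It was 6 without TAT-2 replicate 1 and 7 without vector replicate 1. For most of these alternatives the share of all genes called is not given here. The changes in these counts are therefore not read as a trait of the members. The cause of these changes was not tested.

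The median of complex II, 0.01, was 0.075 when a gene's probe sets were averaged and 0.082 without probe sets whose names end in _x_at or _s_at, and ran from -0.032 to 0.077 with single arrays left out. That of complex III, 0.12, was 0.21 without _x_at and _s_at probe sets. Medians of complexes I, IV and V and of all subunits kept their sign in the alternatives run and moved by less than the spread between replicate numbers. Differences of single genes were followed through the alternatives only for a selection of the genes named above. In that selection signs turned for 6 genes. The signs of the other members, some of them close to no difference, were not checked under these alternatives. Without _x_at and _s_at probe sets ATP5IF1 came to 0.076, NDUFB4 to -0.042, SDHC to 0.089 and ATP5PB to -0.19, the same with and without the block. With averaged probe sets SDHC came to 0.081 and ATP5PB to -0.054. With single arrays left out and no block NDUFB4 ran from -0.0073 to 0.032, SDHD from -0.026 to 0.20 and SDHC from -0.17 to 0.077. With the block, NDUFB9 came to 0.0083 and SDHC to 0.016 without either or both of the replicate 1 arrays. The block changed the call of the 7 members and of PET117, COA5, SCO1, LYRM7, COX18 and IDH3B, and of no other gene given with values.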
